A study of Mus musculus with 6 samples.

Results

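The genes described here are 10 ligands, receptors and regulators of the transforming growth factor beta (TGF-beta) and activin branch of signalling: Tgfb1, Tgfb2, Tgfb3, Tgfbr1, Tgfbr2, Inhba, Inhbb, Fst, Skil and Ltbp1. They were found by symbol among the 38720 rows of the deposited expression table, and all 10 were present and passed the filter on low values. The study set mice lacking Cldn18, which encodes a tight junction protein of the gastric epithelium, beside wild-type mice, both on the B6:129S5 background. RNA of the neck zone of the corpus glands was obtained by laser microdissection of frozen stomach and sequenced as 3 wild-type (CLDN18+/+) and 3 knockout (CLDN18-/-) libraries. The sample records give an age of 7 weeks and the series text an age of 7 days, so the age is uncertain. Neither the extent of the deletion nor the number of animals behind a library is given, so the p-values measure the spread between these libraries, which may be technical.

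TGF-beta proteins are secreted as latent complexes in which a propeptide and a latent TGF-beta binding protein hold the ligand in the matrix until integrins or proteases release it. The free ligand, or an activin (a dimer of inhibin beta chains), joins a type II and a type I receptor kinase, which phosphorylate SMAD2 and SMAD3 so that these enter the nucleus with SMAD4. Follistatin binds activins outside the cell, and the nuclear protein SKIL restrains the SMADs. In gastric mucosa the pathway is known for limiting epithelial growth and for its part in wound repair and matrix deposition. On mm10, with GENCODE vM21 gene models, the ligand genes are Tgfb1 (chr7:25687002-25705077), Tgfb2 (chr1:186622792-186705989) and Tgfb3 (chr12:86056745-86079041). The activin chain genes are Inhba (chr13:16011851-16031621) and Inhbb (chr1:119415465-119422248), and follistatin is Fst (chr13:114452290-114458951). The receptor genes are Tgfbr1 (chr4:47353222-47414931) and Tgfbr2 (chr9:116084293-116175360), and the other members are Ltbp1 (chr17:75005568-75392512) and Skil (chr3:31095058-31122577).

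The promoters of Tgfb1 and Tgfbr2 are shown because these were the members whose increase passed the test under each of the 20 processing alternatives tried. Each stretch is the 250 bases before the start site listed by RefSeq on GRCm38.p6, written 5′ to 3′ on the strand of the gene, with matches to the SMAD element CAGAC in capitals. Tgfb1 lies on the plus strand (chr7:25686752-25687001) and Tgfbr2 on the minus strand (chr9:116175364-116175613).
Tgfb1: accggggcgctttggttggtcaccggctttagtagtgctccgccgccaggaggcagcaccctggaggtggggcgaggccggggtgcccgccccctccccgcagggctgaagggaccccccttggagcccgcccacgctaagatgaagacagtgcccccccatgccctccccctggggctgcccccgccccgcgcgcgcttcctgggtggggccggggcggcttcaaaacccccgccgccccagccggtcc
Tgfbr2: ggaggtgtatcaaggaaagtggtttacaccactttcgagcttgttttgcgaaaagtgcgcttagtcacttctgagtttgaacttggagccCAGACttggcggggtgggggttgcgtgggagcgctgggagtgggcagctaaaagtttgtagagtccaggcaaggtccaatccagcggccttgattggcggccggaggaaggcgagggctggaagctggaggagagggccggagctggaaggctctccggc
CAGAC or its complement GTCTG occurred once in the Tgfbr2 stretch and not in that of Tgfb1, where 75.2% of the bases were G or C. The AP-1 motif TGANTCA, searched on both strands as well, was in neither. Of all 32851 promoter stretches of this length, 42.2% held CAGAC on either strand and 6.75% held TGANTCA. RefSeq entries were matched for 7 of the 10 genes, and 3 of these 7 held CAGAC at the first listed start (Tgfb2, Tgfbr2 and Ltbp1).

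The libraries held 37673283 to 52842813 reads on genes, of which a single locus, Gm26924, took 38.6% to 45.4%. Mitochondrial genes took 3.28% to 4.28% of reads in wild-type libraries and 1.25% to 1.56% in knockout libraries, and the part of this difference in the results was not tested. Cldn18 itself was lower in the knockout but still read, at 13035 to 16798 normalized counts against 21210 to 30498 (log2 difference -0.71, limma adjusted p = 0.0134), and that call was lost without knockout replicate 1 (log2 difference -0.60, limma adjusted p = 0.0896). Wild-type replicates 2 and 3 stood apart in the summed markers of the forestomach squamous lining. The 6 markers summed to 632, 8255 and 2906 normalized counts in wild-type replicates 1, 2 and 3. They summed to 256 to 432 in the knockout, with 3 of 6 wholly lower there. Wild-type means were 1503, 1027 and 1162 for Krt5, Krt14 and Krt17, against 62.0, 36.0 and 41.1 in the knockout. The mean of Krt4 went from 30.8 to 12.6. Means of Krt13 (188 in wild-type and 159 in the knockout) and Trp63 (20.9 and 20.5) differed little. Results that change without wild-type libraries 2 and 3 are given both ways. The 3 mucous neck cell markers of the neck zone summed to 74440 to 96360 in wild-type libraries and 63912 to 152258 in knockout libraries. These 3 went different ways, with 1 wholly higher and 1, Muc6, wholly lower in the knockout. The mean of Muc6 went from 30908 in wild-type to 9729 in the knockout. The mean of Gkn3 went from 1545 to 10086 and that of Tff2 from 50797 to 88307. The 5 chief cell markers summed to 1502220 to 2498224 and to 39487 to 73417, and the 5 parietal cell markers summed to 387470 to 504468 in wild-type and 2041 to 8022 in the knockout. The 4 pit cell markers summed to 766468 to 1336361 in wild-type libraries and 320085 to 560842 in knockout libraries, with 2 of 4 wholly lower. The 7 endothelial markers summed to 6624 to 10849 in wild-type and 2520 to 3382 in the knockout, with 6 of 7 wholly lower. The 7 macrophage and myeloid markers summed to 1938 to 2624 and 3938 to 7523, with 4 of 7 wholly higher. The 7 fibroblast markers overlapped between genotypes (23255 to 38848 and 27600 to 48866), with 3 of 7 wholly higher. None of these markers was at 0 in all 6 libraries. In bulk tissue fewer cells of a type and less RNA per cell cannot be told apart, and the part of these cell types in the results was not tested.

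Of the 10 genes, 3 were higher in the knockout (Tgfbr2, Tgfb1 and Fst), 1 was lower (Tgfb3) and 6 were not called. A gene was called at a limma adjusted p under 0.05, adjusted over 17432 genes. Among all genes tested, 44.7% were called, 23.3% higher and 21.5% lower, so the share called among these 10 was near that of the table as a whole. The median log2 difference was 0.72 for the 10 genes and -0.02 for all genes tested. In 4 of the 10 genes, the same 4, the knockout values lay wholly outside the wild-type values, against 55.2% of all genes tested (28.1% wholly above and 27.1% wholly below). Differences by limma are of log2(normalized count + 1), knockout minus wild-type, which understates the change of low genes. Those given for edgeR and DESeq2 are log2 fold changes fitted to reads recovered from the normalized counts.

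**Figure D1:**
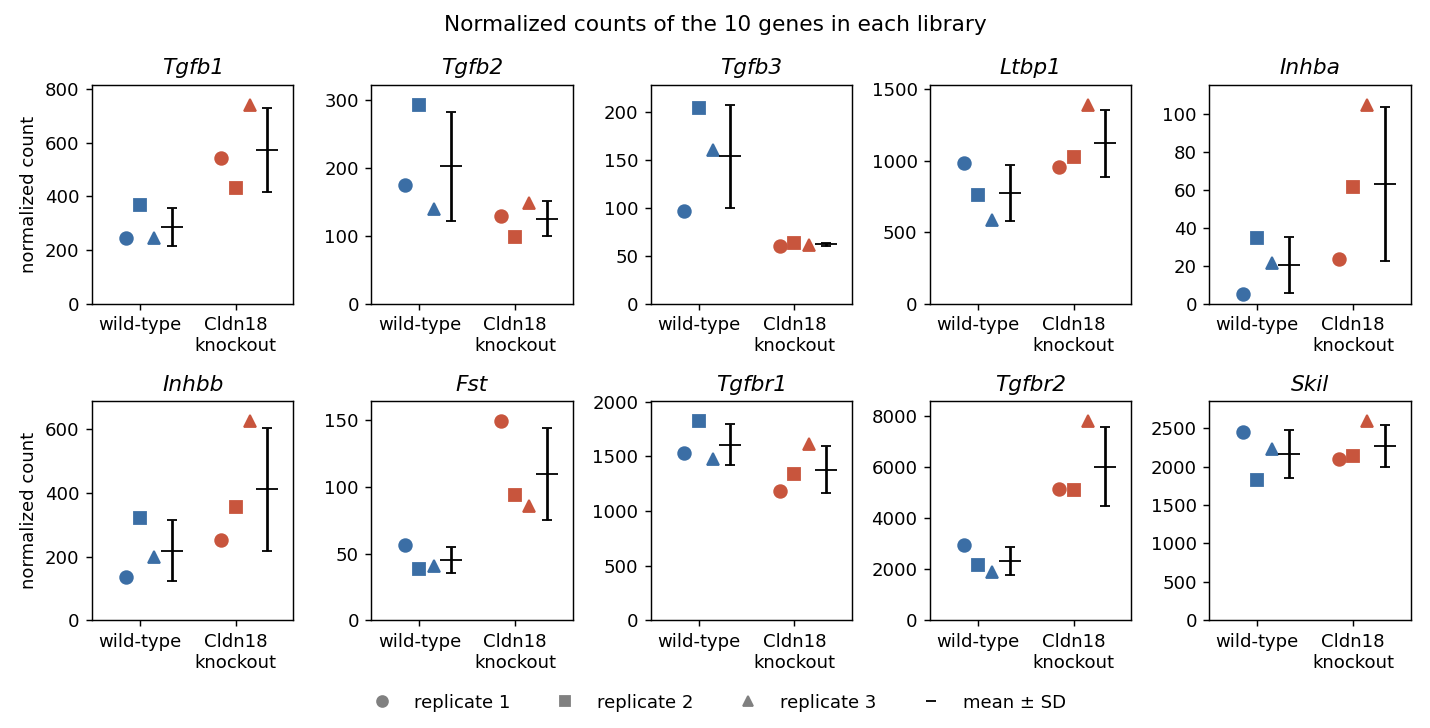
Normalized counts (vertical axis, linear from 0) of each of the 10 genes in the 3 wild-type (blue) and 3 knockout (red) libraries, with the mean ± SD in black. Tgfb1, Tgfbr2 and Fst lie wholly higher and Tgfb3 wholly lower in the knockout, and the other 6 genes overlap.

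Of the 3 TGF-beta ligand genes, Tgfb1 rose, Tgfb3 fell and Tgfb2 was not called. Tgfb1, whose product is the most widely expressed of the ligands, stood at 246, 367 and 247 normalized counts in wild-type replicates 1 to 3 and at 544, 432 and 742 in the knockout. Each knockout library exceeded each wild-type library, and the gene rose by a log2 difference of 0.99 ± 0.24 (SE, n = 3 per group; limma adjusted p = 0.00712). The increase was present without any single library (log2 differences of 0.78 to 1.18). Tgfb3, a ligand studied mostly in palate fusion and scar formation, stood at 96.7, 204 and 160.2 across the wild-type libraries, against 60.4, 63.5 and 61.5 across those of the knockout. The knockout values lay close together and below every wild-type value, and wild-type replicate 2, the library with the most squamous marker reads, was the highest. Tgfb3 fell by 1.23 ± 0.33 on the log2 scale (SE; limma adjusted p = 0.0105). Without wild-type libraries 2 and 3 the log2 difference was -0.64 and the call was lost (limma adjusted p = 0.237), as it was after quantile normalization (log2 difference -0.82, limma adjusted p = 0.0556). Tgfb2, a ligand of development and of many epithelia, was at 175, 293 and 139 across the wild-type libraries, against 129, 98.3 and 148 across those of the knockout. The ranges overlapped and Tgfb2 was not called (log2 difference -0.64 ± 0.31 SE, 95% interval -1.33 to 0.056, limma adjusted p = 0.125).

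Per kilobase of merged exons, the shares of the 3 ligands in TGF-beta ligand mRNA did not overlap between genotypes, while their sum did. Tgfb1 made up 45.3%, 39.6% and 40.7% of the summed level of the 3 ligand genes in wild-type replicates 1 to 3 and 72.8%, 70.6% and 77.1% in the knockout. Its mean share was 41.9% ± 3.0 (SD, n = 3) among wild-type and 73.5% ± 3.3 (SD, n = 3) among knockout libraries. Tgfb3 went from 32.9% ± 6.4 to 12.4% ± 3.0 and Tgfb2 from 25.2% ± 4.6 to 14.1% ± 0.86 (SD, n = 3). For each of the 3 shares the groups did not overlap, and the two-sided exact permutation p was 0.1, the smallest that 3 against 3 allows. The 3 shares are parts of the same sum, so a larger share of Tgfb1 lowers the others and these are not separate results. The normalized counts of Tgfb2 itself overlapped between genotypes. Wild-type replicate 1, which had the fewest squamous marker reads of its group, also had a Tgfb1 share below that of every knockout library. That is a single library, and the part of the squamous lining in the shares was not tested. The summed level was 108, 184 and 120.3 normalized counts per kilobase across the wild-type libraries, against 148, 121 and 191 across those of the knockout (two-sided exact permutation p = 0.5).

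Ltbp1, which encodes a latent TGF-beta binding protein, was at 982, 758 and 588 normalized counts across the wild-type libraries, against 958, 1024 and 1393 across those of the knockout. Wild-type replicate 1 lay within the knockout range, and the gene was not called (log2 difference 0.55 ± 0.21 SE, limma adjusted p = 0.0581). It was called higher with TMM scaling (log2 difference 0.58, limma adjusted p = 0.0314), with array weights (0.63, limma adjusted p = 0.0157), by edgeR (0.57, adjusted p = 0.0363) and without wild-type replicate 1 (0.73, limma adjusted p = 0.0105). Over all alternatives its adjusted p ran from 0.0105 to 0.588.

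Among the activin genes, the inhibitor was called and the ligand subunits were not, but their differences had the same direction. The log2 differences were 1.24 for Fst, 1.70 for Inhba and 0.89 for Inhbb, and each of these calls changed with the libraries used. Inhba, which encodes the chain of activin A, was the lowest of the 10 genes, at 4.90, 34.6 and 21.4 normalized counts across the wild-type libraries, against 23.6, 61.3 and 104.8 across those of the knockout. These values rested on 4, 28 and 22 reads and on 25, 83 and 109 reads. The 4 reads of wild-type replicate 1 have an exact Poisson interval of 1.09 to 10.2 reads (95%, counting error only), which lies below the interval of each other library. Knockout replicate 1 lay inside the wild-type range, and Inhba was not called (log2 difference 1.70 ± 0.74 SE, 95% interval 0.072 to 3.34, limma adjusted p = 0.0844). It was called without wild-type replicate 2 (2.25, limma adjusted p = 0.0249), without knockout replicate 1 (2.28, limma adjusted p = 0.0442), without wild-type libraries 2 and 3 (3.21, limma adjusted p = 0.0202) and after quantile normalization (2.29, limma adjusted p = 0.0278). Over all alternatives its adjusted p ran from 0.0202 to 0.299.

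Inhbb, which encodes the chain of activin B, was at 135, 322 and 200.03 normalized counts across the wild-type libraries, against 251, 356 and 625 across those of the knockout. Wild-type replicate 2 exceeded knockout replicate 1, and the gene was not called (log2 difference 0.89 ± 0.37 SE, limma adjusted p = 0.0739). It was called without wild-type replicate 2 (1.22, limma adjusted p = 0.0120), without knockout replicate 1 (1.19, limma adjusted p = 0.0372), without wild-type libraries 2 and 3 (1.499, limma adjusted p = 0.0368), after quantile normalization (0.998, limma adjusted p = 0.0441) and by DESeq2 (0.87, adjusted p = 0.0422), within a range of 0.0120 to 0.412 over all alternatives.

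Fst, which encodes the activin antagonist follistatin, was at 56.3, 38.3 and 40.8 normalized counts across the wild-type libraries, against 149, 93.8 and 85.5 across those of the knockout. Every knockout value lay above every wild-type value, with replicate 1 the highest in both genotypes. In the annotation, exons of Fst, Tgfb3 and Tgfb2 overlap transcripts of the opposite strand, and the strand setting of the counting is unknown. Fst rose by a log2 difference of 1.24 ± 0.35 (SE; limma adjusted p = 0.0146). The call was lost without knockout replicate 1 (0.99, limma adjusted p = 0.0895) and without wild-type libraries 2 and 3 (0.90, limma adjusted p = 0.142). The ratio of Fst to Inhba within a library, as log2(Fst + 1) minus log2(Inhba + 1), was 3.28, 0.14 and 0.90 across the wild-type libraries, against 2.61, 0.61 and -0.29 across those of the knockout. These values overlapped (means of 1.44 ± 1.64 and 0.98 ± 1.48, SD, n = 3; two-sided exact permutation p = 0.6), and replicate 1 had the highest ratio in both genotypes. Across the wild-type libraries Inhba and Inhbb followed the order of the squamous marker sums, and the ratio ran in the reverse order. The knockout libraries kept neither order. The part of the squamous lining in these values was not tested.

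**Figure D2:**
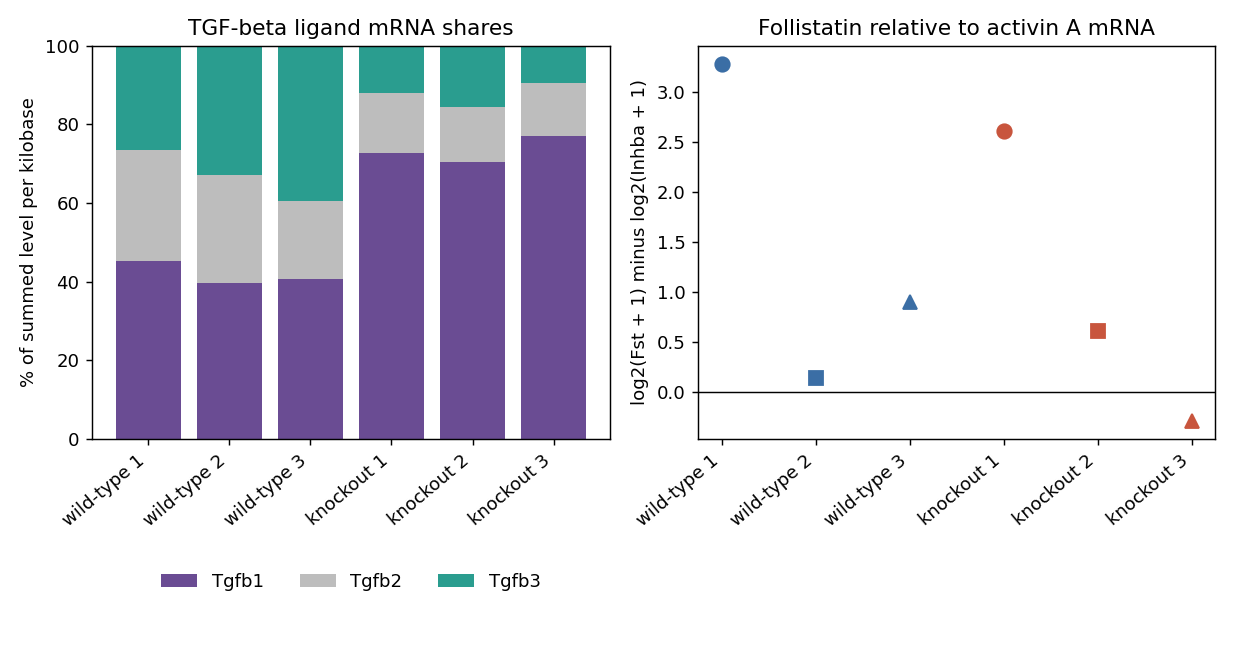
Left, share of Tgfb1, Tgfb2 and Tgfb3 (stacked bars, percent of their summed level per kilobase) in each library, with Tgfb1 at 39.6% to 45.3% in wild-type and 70.6% to 77.1% in the knockout. Right, log2(Fst + 1) minus log2(Inhba + 1) in each library (points; blue wild-type, red knockout), where the genotypes overlap.

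The receptor pair split. Tgfbr2, the type II receptor that binds TGF-beta first, stood at 2935, 2173 and 1891 normalized counts across the wild-type libraries, against 5158, 5104 and 7808 across those of the knockout. The lowest knockout library was well above the highest wild-type library, and Tgfbr2 rose by a log2 difference of 1.36 ± 0.21 (SE, 95% interval 0.90 to 1.83; limma adjusted p = 0.000477). It had the smallest adjusted p of the 10 genes, and its difference ranged from 1.01 to 1.54 over the alternatives. Tgfbr1, the type I receptor kinase that passes the signal to the SMADs, was at 1528, 1821 and 1478 across the wild-type libraries, against 1183, 1343.8 and 1612 across those of the knockout. Tgfbr1 overlapped and was not called (log2 difference -0.23 ± 0.16 SE, 95% interval -0.58 to 0.12, limma adjusted p = 0.27). With upper quartile scaling, which shifted the median of all genes to -0.15, it was called lower (-0.36, limma adjusted p = 0.0490).

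Skil, a SMAD corepressor that TGF-beta signalling itself induces in many cells, was at 2449, 1830.1 and 2230.4 normalized counts across the wild-type libraries, against 2101, 2136 and 2591 across those of the knockout. The 2 groups covered nearly the same range, and Skil was not called (log2 difference 0.073 ± 0.15 SE, 95% interval -0.27 to 0.41, limma adjusted p = 0.732). Its sign turned under upper quartile scaling (-0.065) and quantile normalization (-0.073).

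**Figure D3:**
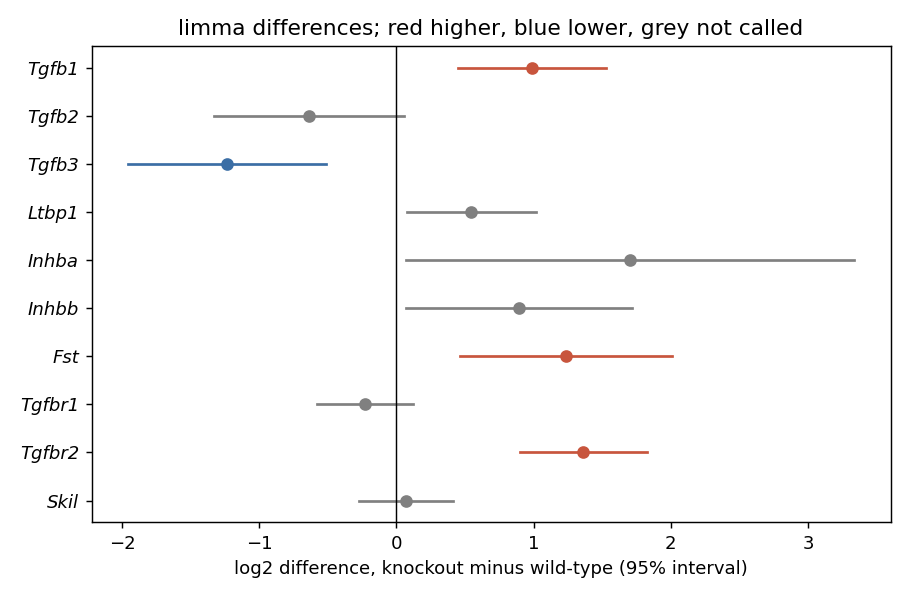
Log2 difference of each of the 10 genes, knockout minus wild-type (points), with its 95% interval from limma (lines). Tgfbr2 at 1.36, Tgfb1 at 0.99 and Fst at 1.24 were called higher, Tgfb3 at -1.23 was called lower, and the 6 genes in grey were not called.

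Levels per kilobase of merged exons placed the receptors and Skil highest. In wild-type, Tgfbr2 (285 ± 66 normalized counts per kilobase, SD, n = 3), Tgfbr1 (246 ± 28) and Skil (224 ± 32) overlapped from each to the next, and Skil was wholly above the gene after it. Ltbp1 (72.6 ± 18.4), Tgfb1 (56.8 ± 13.8), Inhbb (51.5 ± 22.4), Tgfb3 (45.4 ± 15.9) and Tgfb2 (34.9 ± 13.9) came next and likewise overlapped from each to the next. Fst (9.83 ± 2.13) and Inhba (3.17 ± 2.33) were lowest, and each was wholly below the gene before it. In the knockout Tgfbr2, at 736 ± 189 per kilobase, was wholly above the next gene, Skil (235 ± 28). Tgfb1 moved above Ltbp1 by its mean (114 ± 31 against 105 ± 22), with overlapping values. Fst (23.9 ± 7.5), Tgfb2 (21.6 ± 4.3) and Tgfb3 (18.3 ± 0.46) overlapped there from each to the next.

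Knockout replicate 3 had the highest value of its group for 8 of the 10 genes, all but Tgfb3 and Fst. How often it was the highest among all genes was not counted, so this is not a trait of these 10 genes. The same library had the highest summed fibroblast markers (48866) and the highest summed macrophage and myeloid markers (7523) of the 6 libraries. Its 3 mesothelial markers summed to 289, against 81.3 to 92.6 in the other knockout libraries and 6.12 to 35.9 in wild-type libraries. The part of these cell types in the values of the 10 genes was not tested. Without knockout replicate 3 Tgfb1 (log2 difference 0.78, limma adjusted p = 0.0387) and Tgfbr2 (1.16, limma adjusted p = 0.00227) were called as before. Without wild-type libraries 2 and 3 both were called as well, at 1.18 and 1.01 (limma adjusted p = 0.0197 and 0.0184).

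The genes most like Tgfbr2 over the 6 libraries were Bicc1, Emilin1, Serpine2, Pld4 and Pmepa1. Likeness was the root mean square difference between log2 values centred on each gene's mean, and it ran from 0.076 for Bicc1 to 0.10 for Pmepa1 on the log2 scale. These genes were picked from all genes tested by that likeness, so their rise in the knockout follows from the choice. Bicc1, the closest, stood at 452, 356 and 310 normalized counts across the wild-type libraries, against 767, 889 and 1312 across those of the knockout. Emilin1, which encodes a matrix glycoprotein, went from 717, 491 and 487 normalized counts in wild-type to 1237, 1117 and 1859 in the knockout. Pmepa1, whose product is a TGF-beta-induced membrane inhibitor of SMAD activation, stood at 1850, 1456 and 1386 across the wild-type libraries, against 3737, 3296 and 4720.2 across those of the knockout.

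Beyond the 10 genes, 81 other genes of the pathway were listed in 5 groups, of which 72 passed the filter. Of these 18 were higher, 11 lower and 43 not called, so 40.3% were called, against 44.7% of all genes tested. Their median log2 difference was 0.08.

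Of 15 genes of TGF-beta latency and activation, all tested, 4 were higher and 2 lower (median 0.01). Itgav and Itgb6, which encode the 2 chains of the integrin that frees latent TGF-beta on epithelia, rose by log2 differences of 0.86 ± 0.17 and 0.97 ± 0.15 (SE; limma adjusted p = 0.00191 and 0.000603). Itgb1 rose by 0.55 ± 0.16, a call lost without knockout replicate 3 (0.46, limma adjusted p = 0.0737) and without wild-type libraries 2 and 3 (0.45, limma adjusted p = 0.0993). Furin, a protease that cleaves the TGF-beta propeptide among many other substrates, went from 23784 to 40760.3 normalized counts in wild-type to 2264 to 5190.2 in the knockout and fell by 3.32 on the log2 scale (limma adjusted p = 1.41e-05). Thbs1, which encodes the latency-releasing protein thrombospondin 1, was at 1617, 14697 and 5636 across the wild-type libraries, against 644, 1410.3 and 1443 across those of the knockout. Its wild-type values followed the order of the squamous marker sums, but its knockout values did not. In the knockout, replicate 1 had the highest squamous sum (432) and the lowest Thbs1 value (644). The part of the squamous lining in these values was not tested. The log2 difference of -2.22 for Thbs1 (limma adjusted p = 0.0147) was -0.56 without wild-type libraries 2 and 3, where the call was lost. The call of Thbs1 was lost without wild-type replicate 3 or without knockout replicate 1 (-2.15 to -1.84, limma adjusted p = 0.0639 to 0.0640). It was also lost with no mean trend (limma adjusted p = 0.0786) and in the authors' deposited table (adjusted p = 0.307). Ltbp2, another binding protein gene, rose by 1.36 ± 0.49 (limma adjusted p = 0.0417), and this call was lost when any library but wild-type replicate 2 was left out (0.99 to 1.55, limma adjusted p = 0.0617 to 0.171). Ltbp2 was also not called by edgeR (adjusted p = 0.0766), with upper quartile scaling (limma adjusted p = 0.0568), with no mean trend (limma adjusted p = 0.0978) or in the authors' deposited table (adjusted p = 0.224).

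Of 16 other ligands and extracellular inhibitors, 9 passed the filter, with 3 higher and 1 lower (median 0.26). Dcn and Bgn, which encode matrix proteoglycans that can bind TGF-beta, rose by 0.9997 ± 0.25 and 0.983 ± 0.24 on the log2 scale (SE; limma adjusted p = 0.00728 and 0.00637). Both calls were lost without wild-type libraries 2 and 3 (0.66 and 0.74, limma adjusted p = 0.176 and 0.119) and in the authors' deposited table (adjusted p = 0.0949 and 0.0717). Dcn is also a fibroblast marker of the list above. Gdf15, a stress-induced distant member of the family, rested on 9 reads in the 3 wild-type libraries and 124 in the knockout, a ratio of 10.6 (95% counting interval 5.41 to 23.7), and it rose by 3.24 ± 0.73 (limma adjusted p = 0.00436). Gdf9, known as an oocyte factor, went from 46.6 to 86.4 normalized counts in wild-type to 9.44 to 13.5 in the knockout and fell by 2.46 on the log2 scale (limma adjusted p = 0.00146).

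Of 11 receptors and co-receptors, a list without the members Tgfbr1 and Tgfbr2, 10 passed the filter. Of these 0 were higher and 3 were lower (median -0.41), against 23.3% higher and 21.5% lower among all genes tested. Tgfbr2, described above, was higher, and Tgfbr1 was not called. The count of 0 by limma was also 0 at an unadjusted p under 0.05, and 0 by edgeR and by DESeq2. Tgfbr3, which encodes the co-receptor betaglycan that presents TGF-beta to the type II receptor, was at 858, 688 and 599 across the wild-type libraries, against 313, 307 and 273 across those of the knockout and fell by 1.25 ± 0.18 on the log2 scale (SE; limma adjusted p = 0.000366). Acvr1c, a type I receptor for activins and Nodal, was at 563, 505 and 452 across the wild-type libraries, against 170.0, 225 and 168 across those of the knockout and fell by 1.44 ± 0.20 (limma adjusted p = 0.000265). Acvr2a, an activin type II receptor, was lower by a log2 difference of -0.44 ± 0.16 (limma adjusted p = 0.0436), a call lost when any library but wild-type replicate 3 was left out (-0.48 to -0.34, limma adjusted p = 0.0690 to 0.176). Acvr2a was also not called with no filter (limma adjusted p = 0.0743), with no mean trend (limma adjusted p = 0.0891) or in the authors' deposited table (adjusted p = 0.275).

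Of 17 SMADs and intracellular regulators, 16 passed the filter, with 4 higher and 2 lower (median 0.11). The signalling SMADs themselves were not called: the log2 differences were -0.18 ± 0.23 for Smad2, 0.37 ± 0.16 for Smad3 and 0.11 ± 0.15 for Smad4 (SE). Smad3 was called higher with TMM scaling (0.40, limma adjusted p = 0.0451), by edgeR (0.40, adjusted p = 0.0439) and without wild-type replicate 2 (0.46, limma adjusted p = 0.0423). The sign of Smad4 turned with upper quartile scaling and quantile normalization (-0.031 in each). Smad7, the inhibitory SMAD that the pathway induces, was not called (-0.25 ± 0.16 SE), but without wild-type replicate 2 it was called lower (-0.40, limma adjusted p = 0.0489). The regulators that rose were Pmepa1 (1.32 ± 0.17, limma adjusted p = 0.000165), the ubiquitin ligase gene Smurf1 (1.28 ± 0.15, limma adjusted p = 8.56e-05) and the SMAD corepressor genes Tgif1 (0.75 ± 0.20) and Ski (0.47 ± 0.15). Tgif1 lost its call without knockout replicate 3 (0.61, limma adjusted p = 0.0555). Ski lost it in 8 of the 20 alternatives, among them without wild-type replicate 3, knockout replicate 1 or knockout replicate 3 (0.33 to 0.54, limma adjusted p = 0.0501 to 0.137) and without wild-type libraries 2 and 3 (0.38, limma adjusted p = 0.186). The others included upper quartile scaling (0.33, limma adjusted p = 0.0525), no mean trend (limma adjusted p = 0.0863) and the authors' deposited table (adjusted p = 0.125). Zfyve9, which encodes the SMAD anchor SARA, fell by 0.68 and the ubiquitin ligase gene Wwp1 fell by 0.76 on the log2 scale (limma adjusted p = 0.00340 and 0.00163).

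Of 22 genes often used as TGF-beta response genes, all tested, 7 were higher and 3 lower (median 0.25). Without wild-type libraries 2 and 3, 4 of them were called, and the share of all genes called fell to 31.5%. Cdkn2b, which encodes the cell cycle inhibitor p15 induced by TGF-beta in epithelia, was at 2796, 2122 and 2372 across the wild-type libraries, against 336, 328 and 593 across those of the knockout. It fell by 2.58 ± 0.23 on the log2 scale (SE; limma adjusted p = 1.33e-05). The matrix gene Tnc (tenascin C) rose by 1.93 ± 0.33 and Fn1 (fibronectin) by 1.24 ± 0.24, with Itga5, a fibronectin receptor chain gene, higher by 1.12 ± 0.22. Without wild-type libraries 2 and 3 the calls of Fn1 (0.86, limma adjusted p = 0.0632) and Itga5 (0.76, limma adjusted p = 0.0537) were lost. The chromatin protein gene Hmga2 rose by 1.26 ± 0.20 and the transcription factor gene Bhlhe40 by 0.88 ± 0.18. Ctgf, named here after its values were seen because it is a widely used reporter of the pathway, was not called. Ctgf was at 247, 2240.1 and 687 in wild-type, again in the order of the squamous marker sums. It was at 336, 883 and 738 across the knockout libraries, where replicate 1, with the highest squamous sum of its group, was lowest. The part of the squamous lining in these values was not tested. The log2 difference of Ctgf, -0.27 ± 0.64 (SE), was 1.28 without wild-type libraries 2 and 3.

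**Figure D4:**
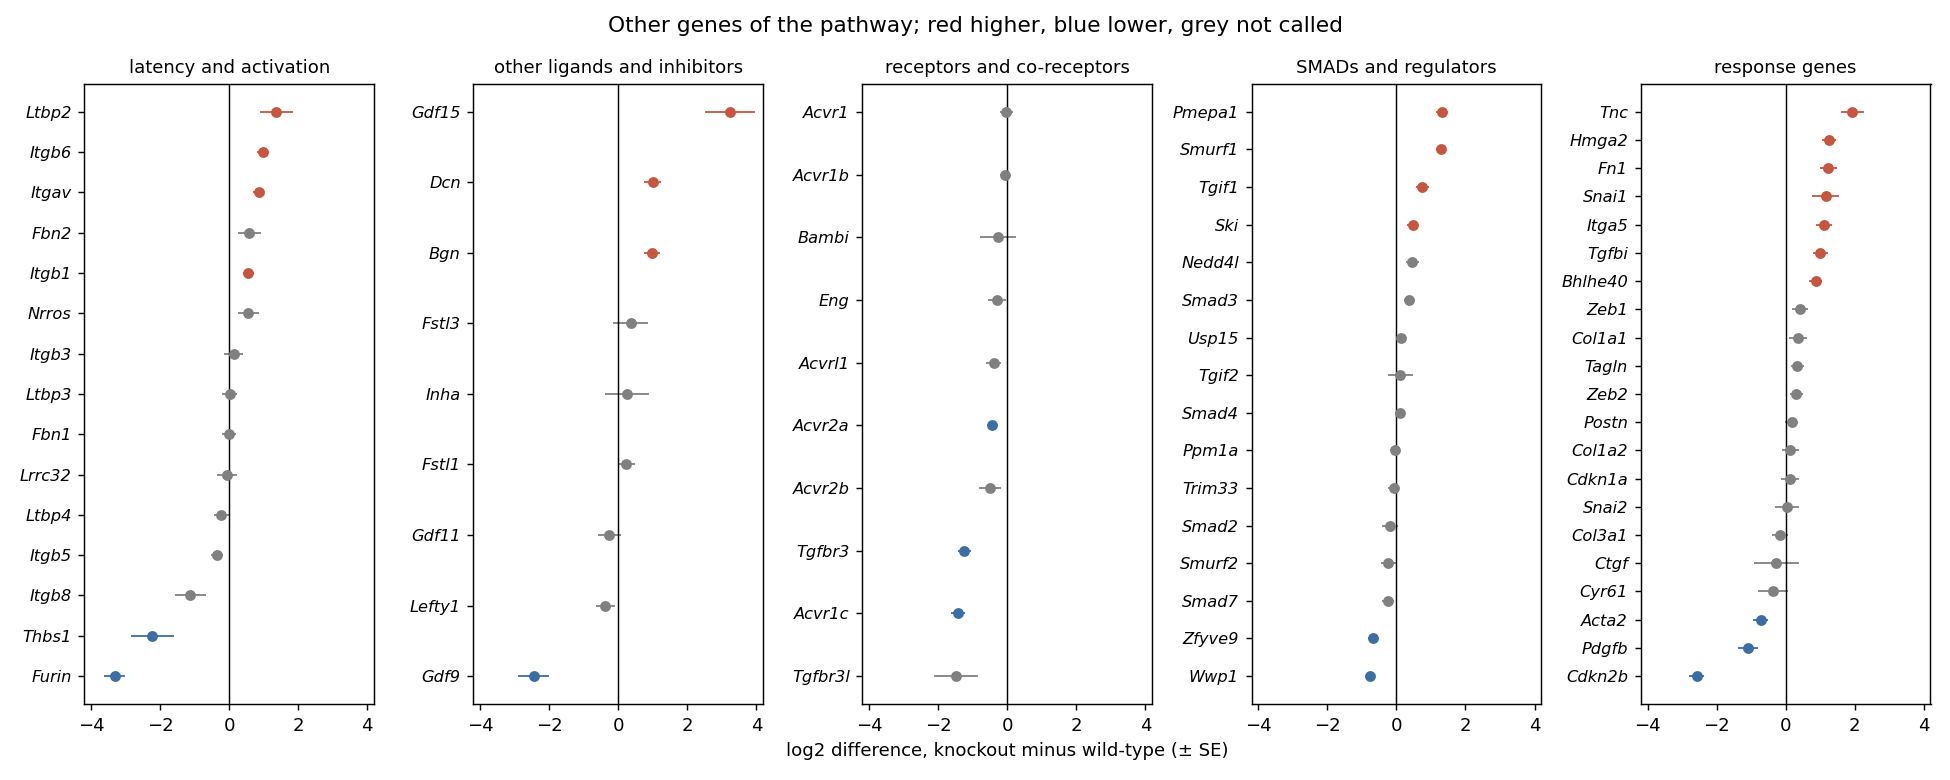
Log2 difference, knockout minus wild-type (points, ± SE), of 71 of the 72 other pathway genes that passed the filter, in 5 groups. None of 10 receptors and co-receptors, a list without Tgfbr1 and Tgfbr2, was called higher, against 23.3% of all genes tested. The response genes ran from -2.58 for Cdkn2b to 1.93 for Tnc.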

How the data were processed

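RNA of laser-captured gastric neck mucosa was measured in 3 wild-type and 3 Cldn18 knockout libraries, grouped by the genotype label and numbered by title. Per the submitters' processing notes, STAR, featureCounts and DESeq were used with mm10; roles, versions, annotation and strand setting were not given in the sources used here. The authors deposited 38720 rows of normalized counts (unit: signal); 27 rows carry a date where the symbol should be. Each value was a whole number of reads (within 0.05) times 1 factor per library, for 100% of values. The authors' deposited table of their comparison gives means, a fold change (ratio) and p-values and served only as an alternative.

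The test was limma 3.58.1 (R 4.3.3; lmFit and eBayes with a mean trend) on log2(normalized count + 1), two-sided, Benjamini-Hochberg adjusted over the 17432 genes that reached 10 normalized counts in 3 or more libraries. The procedure was tested on simulated data. Alternatives (20 in all) changed the pseudocount, filter, scaling, variance model, libraries and test, with edgeR 4.0.16 and DESeq2 1.42.0 on the recovered reads, on which they called 8047 and 7907 genes. Exon lengths and positions came from GENCODE vM21. Exons of Tgfb2, Tgfb3 and Fst overlap transcripts of the other strand, whose reads cannot be told apart without a strand setting. Members and lists were chosen with earlier results of these data known. The text names all members, the called genes of each list (up to the 6 smallest adjusted p), and the 5 genes most like the member with the smallest adjusted p. Other genes named are SMADs given as not called and those stated as chosen later. 1 gene of the response list enters the counts but is not reported here by name.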

Additional observations from a re-analysis of the deposited data

How the results depend on the processing

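Of 34 called genes named here, 17 kept their call under every alternative in which they were tested, among them Tgfbr2 and Tgfb1. Without wild-type libraries 2 and 3, a single wild-type library remains, whose spread is taken to equal that of the knockout; 2998 genes were then called higher and 2488 lower, against 4053 and 3743. The authors' deposited table called 2918 genes higher and 2024 lower, so 59.0% of its calls were higher, against 52.0%. Members called higher numbered 5 after quantile normalization and 5 with the replicate block, and 3 to 5 with 1 library left out. Members called lower numbered 2 with upper quartile scaling and, by limma, 0 after quantile normalization (2 at an unadjusted p under 0.05) and 0 without wild-type libraries 2 and 3 (0 unadjusted), against 1 by edgeR and 1 by DESeq2. The list of other ligands and inhibitors had 2 calls with the filter at 50 (fewer genes tested), 2 in the authors' deposited table and 2 without wild-type libraries 2 and 3, and the response list 4 without these libraries. Calls in the SMAD list numbered 4 to 9 and in the response list 8 to 13 with 1 library left out, in the latency list 4 to 6, in the receptor list 2 to 3, in the ligand list 4 in each case, and for all genes 3138 to 4379 higher and 2969 to 3899 lower. Quantile normalization moved the all-gene median from -0.015 to 0.10, and upper quartile scaling moved it to -0.15.

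Signs turned only among results with no call. Skil was at -0.065 with upper quartile scaling, -0.073 after quantile normalization, -0.11 without wild-type libraries 2 and 3, and -0.045 to 0.17 with 1 library left out. Smad2 was at 0.26 without wild-type libraries 2 and 3 and -0.40 to 0.10 with 1 library left out, and Smad4 at -0.031 with upper quartile scaling and -0.031 after quantile normalization. Ctgf was at 1.28 without wild-type libraries 2 and 3 and -1.04 to 0.55 with 1 library left out. The Fst to Inhba difference was -1.28 to 0.45 with 1 library left out. The causes were not tested.

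The labels name no pairing of libraries by replicate number. Deviations of same-numbered libraries correlated at -0.00366, 0.0214 and -0.173, which cannot exclude a pairing with 3 libraries per group. Adding the replicate block gave 3726 higher and 3626 lower calls, Acvr2a and Ski lost their calls (adjusted p = 0.0810 and 0.0551), and Inhba (adjusted p = 0.0216) and Inhbb (adjusted p = 0.0179) were called higher. Depth limits Inhba and Gdf15 most, with 4 and 1 reads in their lowest libraries.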

Other observations

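The 4 remaining called genes of the response list, named here after their values were seen, also went both ways. Tgfbi, which encodes a secreted matrix protein, stood at 1392, 873 and 842 normalized counts across the wild-type libraries, against 1802, 1730.2 and 2674 across those of the knockout, and it rose by a log2 difference of 1.01 ± 0.23 (SE; limma adjusted p = 0.00446). Snai1, an epithelial-mesenchymal transition factor, rose by 1.16 ± 0.39 (limma adjusted p = 0.0324), and it lost that call when any library but wild-type replicates 1 and 2 was left out (0.73 to 1.31, limma adjusted p = 0.0534 to 0.130). Pdgfb, a growth factor gene active in endothelium, fell by 1.09 on the log2 scale (limma adjusted p = 0.00951), beside endothelial markers that summed to 33.8% of their wild-type mean. Acta2, a smooth muscle actin gene, fell by 0.72 (limma adjusted p = 0.0196), beside smooth muscle and pericyte markers, Acta2 among them, that summed to 67.5% of their wild-type mean. The part of these cell types in the results was not tested. Acta2 lost its call without knockout replicate 1 (-0.66, limma adjusted p = 0.0784), with no mean trend (limma adjusted p = 0.0805) and in the authors' deposited table (adjusted p = 0.252), and Snai1 lost its call with no mean trend (limma adjusted p = 0.0672). Without wild-type libraries 2 and 3 none of these 4 genes was called by limma (Tgfbi 0.54, adjusted p = 0.135; Snai1 0.75, adjusted p = 0.150; Pdgfb -1.21, adjusted p = 0.0509; Acta2 -0.45, adjusted p = 0.0568).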
